A study of Homo sapiens with 8 samples.

Results

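The average effect of dexamethasone over cells with and without estradiol was measured with RNA-seq in the Ishikawa line, an established human endometrial adenocarcinoma line that carries receptors for estrogen and glucocorticoids. It was taken as the difference between the 4 libraries of cells given dexamethasone and the 4 libraries of cells not given it, which are all 8 libraries of the series. An additive model with a term for dexamethasone and a term for estradiol was fitted, so that the dexamethasone term is the log2 fold change shared by both estradiol backgrounds. The 4 groups had 2 libraries each. The vehicle group received DMSO, the dexamethasone group 100 nM of this synthetic glucocorticoid, the estradiol group 10 nM of the estrogen 17-beta-estradiol, and the combination group both hormones at these doses. All groups were kept in medium free of phenol red with charcoal-stripped serum, which holds little steroid hormone of its own. The sample labels give 8 hours of treatment for every library, whereas the treatment protocol shared by the samples gives 1 hour, and the sources used here do not settle which applies to the RNA. All cells are of 1 line, and no label states whether both libraries of a group stem from separate cultures, so the p-values rest on a spread between libraries that may be technical. In the text the values of a group are given in the order replicate 1, replicate 2, and for the combination replicate 1 and then the library without a number.

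Dexamethasone binds the glucocorticoid receptor, a transcription factor that chaperones hold in the cytoplasm until a ligand arrives. The bound receptor enters the nucleus and attaches to glucocorticoid response elements, from which it raises a set of genes found in many tissues, among them its own inhibitors. It also lowers other genes, often by interfering with the transcription factors AP-1 and NF-kB, and in the uterus glucocorticoids are known to oppose some actions of estrogen.

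Depth was 17846211 to 22487333 counts per library, with 16969 to 17507 genes detected. The count table lists 26364 genes, and 14201 of them were tested after a filter on low counts. The sum over 16 markers of endometrial epithelium was between 4087 and 5739 CPM (counts scaled to the same library size) in each library. The sum over 20 leukocyte markers was between 4.00 and 6.4 CPM, with 7 of them, including CD3D, CD3E, MS4A1 and CD163, at 0 counts in all libraries. The 2 libraries of dexamethasone alone differed at genes that estrogen raises, with PGR, the progesterone receptor gene, at 8.91 CPM in the first and 2.47 CPM in the second. They also differed in RNA45S5, a ribosomal RNA gene, which made up 1.42% of counts in the second against 2.79% to 4.03% in the 7 other libraries.

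Of the 14201 genes, 125 (0.88%) passed a Benjamini-Hochberg adjusted p of 0.05 in edgeR's quasi-likelihood test for the dexamethasone term. The response was mostly upward: 117 genes rose (0.824%) and 8 fell (0.0563%). The median log2 fold change over all genes tested was -0.0005. Among the genes that rose the median was 0.81, with quartiles of 0.59 and 1.40 and a range of 0.31 to 3.72. The upper end was TPRG1-AS1, an antisense gene at no more than 2.53 CPM in any library, named after its values were seen. At least 2-fold rises were seen for 42 of them, and 29 rose by less than 1.5-fold. In 80 of the 117, all 4 libraries with dexamethasone lay above all 4 without it, and 6 of the 8 that fell lay wholly below. Over all genes tested, the 4 libraries with and the 4 without dexamethasone did not overlap in 3.71%. In addition, 1452 genes had an unadjusted p under 0.05. The adjusted p-values nearest to the threshold were 0.0498 for PIM3 and MYO10, inside it, and 0.0502 for GYLTL1B and CSRNP1, outside it.

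**Figure D1:**
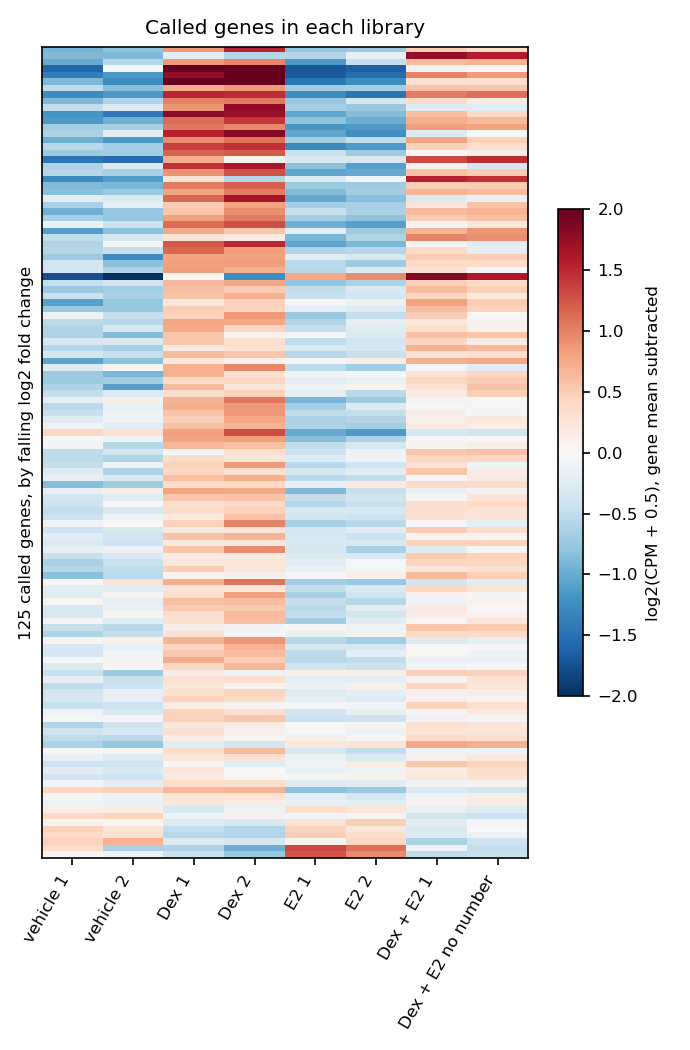
Expression of the 125 called genes (1 line each, sorted by the log2 fold change of the dexamethasone term, largest at the top) in each of the 8 libraries (columns). Colour is log2(CPM + 0.5) minus the gene's mean over the 8 libraries, red above and blue below it. The 117 raised genes are mostly red in the 4 dexamethasone columns, more strongly so in the 2 without estradiol, and the 8 lowered genes at the bottom show the opposite colours.

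Without dexamethasone replicate 1, 90 of the 117 raised and 7 of the 8 lowered genes passed again, among 120 genes called (92 higher, 28 lower). Without dexamethasone replicate 2 the total was 84 (77 higher, 7 lower). Of the raised genes 62 passed in each of the 8 fits that left out 1 library, and 4 (AKR1C2, PDE4DIP, MGLL and MYO10) in none of them. Of the lowered genes 4 passed in each. DESeq2 and limma-voom both called all 117 raised genes. Of the 8 lowered genes DESeq2 called all and limma-voom 7, without GOLGA8B.

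The receptor gene itself did not pass. NR3C1, which encodes the glucocorticoid receptor, was at 63.4 and 66.4 CPM in the vehicle libraries, 59.95 and 58.9 CPM with dexamethasone, 65.5 and 58.3 CPM with estradiol and 62.9 and 64.9 CPM with both, and its log2 fold change was -0.04 ± 0.069 (adjusted p = 0.858). These 8 values overlapped between the groups with and without dexamethasone.

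Of 48 genes listed as glucocorticoid targets in other tissues, 40 were tested, 18 rose and 0 fell, against 0.88% called among all genes. Their median log2 fold change was 0.47, and 32 of the 40 were above 0. The list was chosen with earlier results of these data known, so these counts are a description and no independent test. TSC22D3, FKBP5 and PER1 were among the clearest. TSC22D3, the gene of the leucine zipper protein GILZ that blocks NF-kB and AP-1, was at 13.0 and 15.5 CPM in the vehicle libraries, 119 and 149.6 CPM with dexamethasone, 10.7 and 11.9 CPM with estradiol and 70.0 and 63.5 CPM with both. Its log2 fold change was 2.91 ± 0.14 (adjusted p = 5.75e-07). All 4 libraries with dexamethasone were far above the other 4, and the 2 given both hormones were lower than the 2 given dexamethasone alone. FKBP5, a co-chaperone that lowers the receptor's affinity for hormone, was at 92.1 and 84.8 CPM in the vehicle libraries, 259 and 303 CPM with dexamethasone, 90.7 and 84.0 CPM with estradiol and 209 and 225 CPM with both. It rose by 1.49 ± 0.088 on the log2 scale (adjusted p = 2.35e-06), with no overlap between the 4 libraries on either side. PER1, a clock repressor that the receptor induces directly in many tissues, was at 18.3 and 19.7 CPM in the vehicle libraries, 129 and 125 CPM with dexamethasone, 18.4 and 15.9 CPM with estradiol and 90.6 and 95.7 CPM with both. With 2.59 ± 0.084 (adjusted p = 1.07e-08) it had the smallest p of all genes, and the lowest dexamethasone library was above 4 times the highest of the others. KLF9, a zinc finger factor induced by steroid and thyroid hormones, was at 2.68 and 3.16 CPM in the vehicle libraries, 8.52 and 11.2 CPM with dexamethasone, 4.05 and 3.44 CPM with estradiol and 9.10 and 9.43 CPM with both, a log2 fold change of 1.52 ± 0.15 (adjusted p = 0.00015). Each dexamethasone library was above each of the others, and the combination libraries lay in the range of dexamethasone alone.

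**Figure D2:**
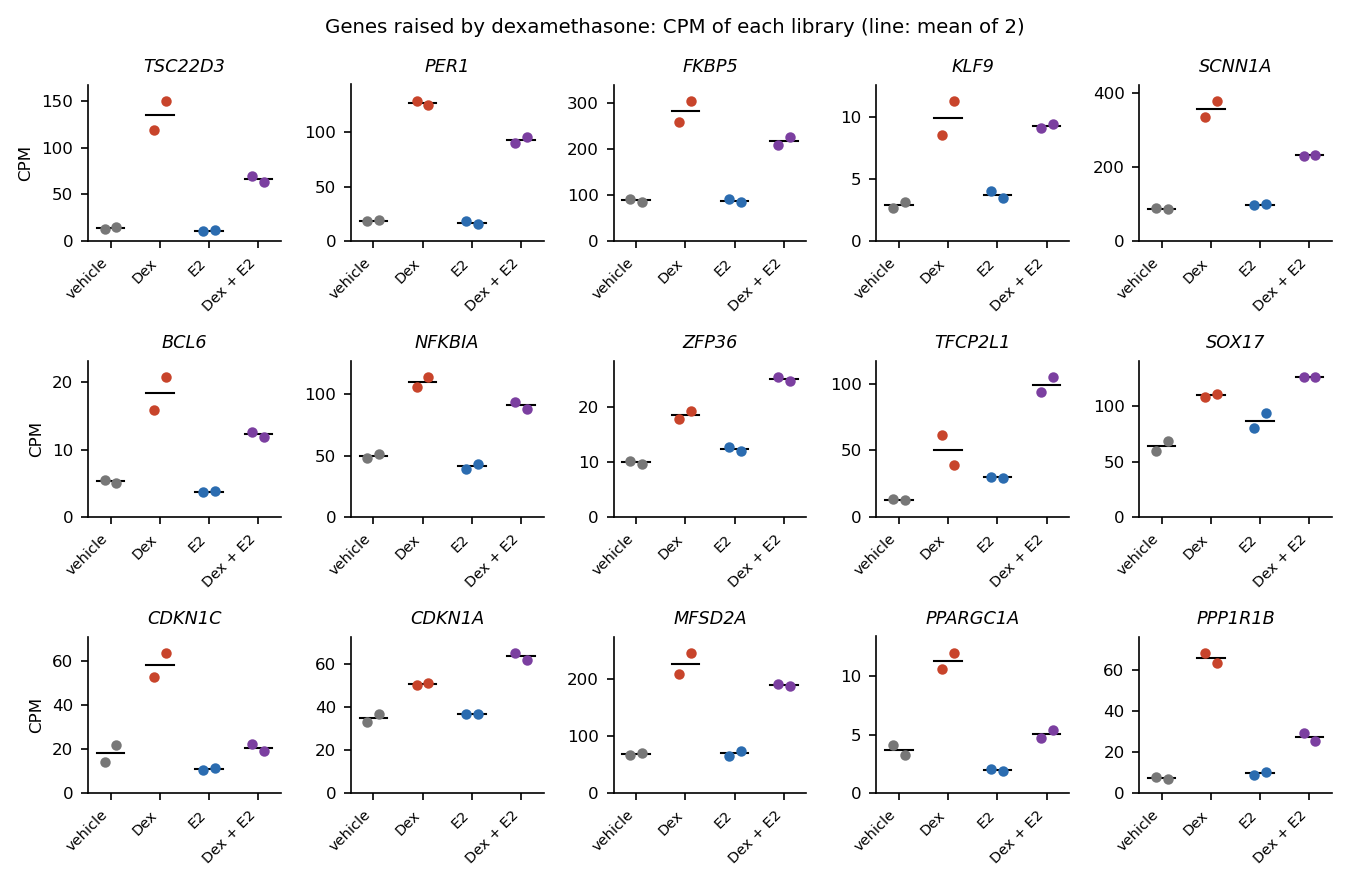
Expression in CPM (vertical axes, starting at 0) of 15 raised genes in the 4 groups. Each point is a library and each line the mean of the 2 libraries of a group. For TSC22D3 the dexamethasone points lie at 119 and 150 CPM and the combination points at 70.0 and 63.5 CPM, against 10.7 to 15.5 CPM without dexamethasone.

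The other targets that rose included BCL6, TFCP2L1, SCNN1A, NFKBIA, ZFP36, CDKN1C, HIF3A, FAM107A, TIPARP, MT1X, MT2A, CEBPD and DDIT4. FAM107A, an actin-binding protein gene induced by stress, was at 1.73 and 1.65 CPM in the vehicle libraries, 5.30 and 7.86 CPM with dexamethasone, 0.788 and 0.971 CPM with estradiol and 1.64 and 1.89 CPM with both (1.57 ± 0.23, adjusted p = 0.00529). The combination libraries were near the vehicle libraries and about 2-fold above estradiol alone, so the groups overlapped across backgrounds but not within them. TIPARP, which encodes an ADP-ribosyltransferase that restrains the aryl hydrocarbon receptor, was at 19.1 and 17.7 CPM in the vehicle libraries, 28.5 and 24.9 CPM with dexamethasone, 26.2 and 24.4 CPM with estradiol and 38.5 and 38.1 CPM with both (0.57 ± 0.076, adjusted p = 0.0022). It also stood higher with estradiol, so that dexamethasone alone overlapped with estradiol alone. SGK1 and DUSP1, a kinase and a phosphatase gene that the receptor induces in many cells, were among the 22 not called and are named after their values were seen, with log2 fold changes of 0.45 ± 0.15 (adjusted p = 0.273) and 0.024 ± 0.16 (adjusted p = 0.964).

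**Figure D3:**
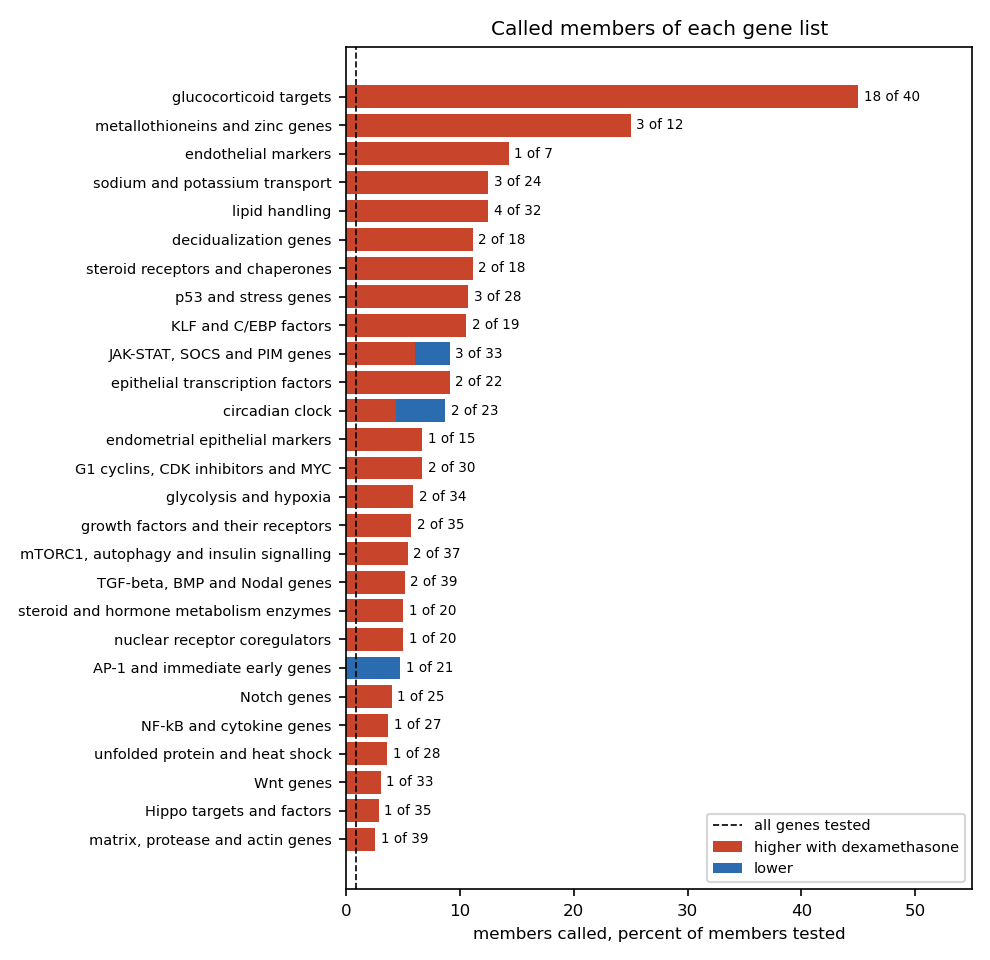
Share of the tested members of each gene list that was called for the dexamethasone term (horizontal axis, percent), for the 27 lists with at least 1 called member. Red bars are members that rose, blue bars members that fell, the numbers give called of tested members and the dashed line is the 0.88% called among all genes tested. The list of glucocorticoid targets stands at 18 of 40, and the blue parts are SOCS2, NR1D2 and EGR1. The lists were chosen with earlier results of these data known.

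Of 24 tested genes of sodium and potassium transport, 3 rose, SCNN1A and TSC22D3 among them, and 0 fell, with a median log2 fold change of 0.12. Over all genes tested 0.88% were called, and SCNN1A and TSC22D3 also belong to the list of glucocorticoid targets. SCNN1A encodes the pore-forming alpha subunit of the epithelial sodium channel, through which sodium enters on the apical side of an epithelial cell. It was at 89.0 and 87.0 CPM in the vehicle libraries, 337 and 378 CPM with dexamethasone, 97.8 and 99.4 CPM with estradiol and 231 and 233 CPM with both, a log2 fold change of 1.63 ± 0.13 (adjusted p = 3.86e-05). The groups did not overlap, and the combination libraries lay between the 2 other levels. Of 15 tested genes of chloride, water and proton transport edgeR, DESeq2 and limma-voom each called 0, and 2 had an unadjusted p under 0.05. A count of 0 in a list of this size is near the background.

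NFKBIA and ZFP36, which restrain inflammatory signalling, rose. Of 27 tested NF-kB and cytokine genes edgeR and limma-voom called 1, which rose, and DESeq2 4. With 0.88% of all genes called, 1 of 27 is near the background. The gene was NFKBIA, the inhibitor that retains NF-kB in the cytoplasm. It was at 48.3 and 51.6 CPM in the vehicle libraries, 106 and 114 CPM with dexamethasone, 39.5 and 43.5 CPM with estradiol and 94.2 and 88.0 CPM with both, and the log2 fold change was 1.137 ± 0.066 (adjusted p = 2.35e-06). The rise was of nearly the same size in both backgrounds, 1.141 without and 1.13 with estradiol. ZFP36, an RNA-binding protein that speeds the decay of cytokine mRNAs, was at 10.2 and 9.72 CPM in the vehicle libraries, 17.9 and 19.2 CPM with dexamethasone, 12.8 and 12.1 CPM with estradiol and 25.4 and 24.7 CPM with both (0.96 ± 0.083, adjusted p = 7.31e-05). All 4 dexamethasone libraries lay above the others, the combination highest. Of 21 tested AP-1 and immediate early genes 0 rose and 1 fell, EGR1, described below with the other lowered genes. FOS, the partner of JUN in AP-1, was at 4.25 and 4.23 CPM in the vehicle libraries, 2.89 and 2.92 CPM with dexamethasone, 4.34 and 4.46 CPM with estradiol and 2.75 and 3.73 CPM with both and did not pass (-0.49 ± 0.14, adjusted p = 0.203), although its 4 dexamethasone values were all below the other 4. Of 23 genes of MAPK feedback edgeR and limma-voom called 0 and DESeq2 1, and 7 had an unadjusted p under 0.05, 5 of them with a lower value.

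Of 33 genes of JAK-STAT signalling, BCL6 and PIM3 rose and SOCS2 fell, against 0.88% called among all genes. BCL6, a transcriptional repressor that competes with STAT factors for DNA, was at 5.46 and 5.11 CPM in the vehicle libraries, 15.9 and 20.7 CPM with dexamethasone, 3.72 and 3.84 CPM with estradiol and 12.6 and 11.9 CPM with both (1.74 ± 0.11, adjusted p = 6.18e-06). The 4 libraries with dexamethasone were between 11.9 and 20.7 CPM and the 4 without at most 5.46 CPM. PIM3, a survival kinase, was at 63.2 and 64.3 CPM in the vehicle libraries, 86.9 and 71.8 CPM with dexamethasone, 79.4 and 93.8 CPM with estradiol and 123 and 115 CPM with both (0.39 ± 0.081, adjusted p = 0.0498). Its groups overlapped, since estradiol alone lay in the range of dexamethasone alone or above it, and it passed again only in the fit without dexamethasone replicate 2 (adjusted p up to 0.178 in the other 7).

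Among transcription factors, TFCP2L1 and SOX17 rose of 22 epithelial factors. With 0.88% of all genes called, this list and those of markers and of KLF and C/EBP factors below hold fewer than 1 call on average. Their counts of 1 or 2 are no result about a family. TFCP2L1, a Grainyhead-family factor of ductal epithelium, was at 13.3 and 12.7 CPM in the vehicle libraries, 61.8 and 39.0 CPM with dexamethasone, 30.0 and 29.7 CPM with estradiol and 93.8 and 105 CPM with both. Its log2 fold change was 1.84 ± 0.13 (adjusted p = 8.62e-06). Levels were also higher with estradiol than with vehicle, and highest with both hormones. SOX17, a factor of endometrial gland formation, was at 59.6 and 68.9 CPM in the vehicle libraries, 109 and 111 CPM with dexamethasone, 80.2 and 93.9 CPM with estradiol and 126 and 126 CPM with both (0.65 ± 0.08, adjusted p = 0.00106), with all 4 dexamethasone libraries above all others. It was also the 1 called gene of 15 tested markers of endometrial epithelium. The sum of all 16 markers was 4120 to 4754 CPM in vehicle, 5219 to 5739 CPM with dexamethasone, 4087 to 4318 CPM with estradiol and 4573 to 4841 CPM with both. Of the 15 tested, 14 had a log2 fold change above 0, with a median of 0.15. The largest member of the sum was KRT8, given below with the keratins. KRT18 was at 659 and 806 CPM in vehicle and 915 and 1054 CPM with dexamethasone. CDH1 was at 543 and 564 CPM in vehicle and 500 and 604 CPM with dexamethasone. The part of the shift in the sum in the SOX17 result was not tested. In libraries from whole cultures, more cells of a kind and more RNA per cell cannot be told apart. Of 19 KLF and C/EBP factors KLF9 and CEBPD rose. CEBPD, a factor of acute responses, was at 15.3 and 16.2 CPM in the vehicle libraries, 26.3 and 23.2 CPM with dexamethasone, 20.4 and 23.4 CPM with estradiol and 29.6 and 26.2 CPM with both (0.49 ± 0.095, adjusted p = 0.0329), with dexamethasone alone overlapping estradiol alone. It kept its call only without estradiol replicate 2 or without the unnumbered combination library (adjusted p up to 0.112 in the other 6 fits).

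VDR, the vitamin D receptor gene, was at 19.7 and 20.4 CPM in the vehicle libraries, 43.8 and 44.4 CPM with dexamethasone, 29.1 and 30.2 CPM with estradiol and 44.4 and 46.8 CPM with both (0.87 ± 0.099, adjusted p = 0.000639). The dexamethasone libraries with and without estradiol reached the same level, from a higher start with estradiol. HIF3A, a hypoxia-inducible factor subunit that can oppose the others, was at 1.52 and 2.09 CPM in the vehicle libraries, 7.99 and 9.15 CPM with dexamethasone, 1.24 and 0.971 CPM with estradiol and 2.75 and 1.93 CPM with both (1.77 ± 0.24, adjusted p = 0.00269). Its combination libraries were above estradiol alone and only partly above vehicle. Of 20 tested coregulators of nuclear receptors 1 rose. With 0.88% of all genes called, this is near the background. The gene was PPARGC1A, which drives mitochondrial and gluconeogenic genes. It was at 4.15 and 3.31 CPM in the vehicle libraries, 10.6 and 12 CPM with dexamethasone, 2.08 and 1.90 CPM with estradiol and 4.70 and 5.39 CPM with both (1.49 ± 0.14, adjusted p = 0.00011), lower with estradiol but without overlap of the groups. Of 18 steroid receptor and chaperone genes FKBP5 and GPER1 rose. GPER1, a membrane receptor that binds estrogen, was at 3.52 and 3.94 CPM in the vehicle libraries, 5.10 and 6.68 CPM with dexamethasone, 3.77 and 4.77 CPM with estradiol and 7.85 and 8.08 CPM with both (0.78 ± 0.14, adjusted p = 0.0195). The groups did not overlap, but the call was lost without dexamethasone replicate 2 and without each of the 4 libraries given estradiol (adjusted p up to 0.0888). ESR1, the gene of estrogen receptor alpha, was at 181 and 157 CPM in the vehicle libraries, 199 and 184 CPM with dexamethasone, 125 and 121 CPM with estradiol and 144 and 154 CPM with both and did not pass (0.23 ± 0.067, adjusted p = 0.197).

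Among secreted ligands, receptors and their inhibitors, 1 or 2 members of each pathway rose. With 0.88% of all genes called, lists of this size hold fewer than 1 call on average. Counts of 1 or 2 are near that background and are no result about a pathway. LEFTY1, a secreted inhibitor of Nodal signalling, had the largest log2 fold change among the genes with a mean log2 CPM above 1, 2.99 ± 0.34 (adjusted p = 0.000639). It was at 0.840 and 3.40 CPM in the vehicle libraries, 18.8 and 26.4 CPM with dexamethasone, 0.732 and 0.795 CPM with estradiol and 3.28 and 3.50 CPM with both. Within each background the dexamethasone libraries were higher, and vehicle replicate 2 was level with the combination. With LEFTY2 it has 1203 bases in common at 96.4% identity, so reads could be split between them. Of 39 tested genes of TGF-beta, BMP and Nodal signalling LEFTY1 and FSTL3 rose. FSTL3, which binds and blocks activins, was at 12.5 and 13.8 CPM in the vehicle libraries, 29.6 and 30.4 CPM with dexamethasone, 20.3 and 26.1 CPM with estradiol and 30.0 and 29.7 CPM with both (0.76 ± 0.15, adjusted p = 0.0372). It reached the same level in all 4 dexamethasone libraries, and its call was lost without either vehicle library, without either dexamethasone library or without estradiol replicate 1 (adjusted p up to 0.13).

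NKD2, an inhibitor of the Wnt mediator Dishevelled, was the 1 of 33 Wnt genes that rose. It was at 11 and 11.3 CPM in the vehicle libraries, 28.1 and 26.8 CPM with dexamethasone, 13.0 and 15 CPM with estradiol and 28.9 and 25.9 CPM with both, a log2 fold change of 1.13 ± 0.096 (adjusted p = 6.09e-05). All 4 dexamethasone libraries were near the same level, about 2-fold above the others. JAG1, a Notch ligand, was the 1 of 25 Notch genes that rose, at 204 and 212 CPM in the vehicle libraries, 319 and 368 CPM with dexamethasone, 136 and 125 CPM with estradiol and 167 and 177 CPM with both (0.56 ± 0.08, adjusted p = 0.00375). Levels with estradiol were lower throughout, and the combination stayed below vehicle. Of 35 growth factors and receptors KDR and NGFR rose. KDR, the main receptor of vascular endothelial growth factor, was at 0.262 and 0.0972 CPM in the vehicle libraries, 1.30 and 1.46 CPM with dexamethasone, 0.169 and 0.177 CPM with estradiol and 1.11 and 1.08 CPM with both (2.77 ± 0.32, adjusted p = 0.000661). It rested on 2 to 5 counts in each library without dexamethasone and 24 to 27 in each with it, and without any overlap. As KDR is also an endothelial marker, the sum of 14 such markers is given: it was 52.8 to 66.7 CPM in vehicle, 64.8 to 68.5 CPM with dexamethasone, 48.6 to 59.5 CPM with estradiol and 58.7 to 67.2 CPM with both. Most of that sum was EGFL7, at 36.3 to 56.6 CPM. PECAM1, CDH5 and TEK had at most 1 count in any library, and EMCN and ROBO4 were at 0 in all libraries. The part of such cells in the KDR result was not tested. NGFR, a neurotrophin receptor, was at 1.57 and 1.90 CPM in the vehicle libraries, 3.08 and 2.81 CPM with dexamethasone, 1.07 and 1.46 CPM with estradiol and 5.32 and 5.07 CPM with both (1.40 ± 0.24, adjusted p = 0.0157). The log2 fold changes were 0.76 without and 2.02 with estradiol, and the call was lost without either library of the estradiol group (adjusted p up to 0.0885). F3, the tissue factor gene that starts coagulation, was the 1 of 35 Hippo targets and factors that rose, at 6.77 and 5.2 CPM in the vehicle libraries, 11.2 and 10.3 CPM with dexamethasone, 6.25 and 6.89 CPM with estradiol and 12.2 and 8.98 CPM with both (0.77 ± 0.13, adjusted p = 0.0149). That call was lost without vehicle replicate 2, estradiol replicate 1 or combination replicate 1 (adjusted p up to 0.0676).

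The CDK inhibitor genes CDKN1A and CDKN1C rose. CDKN1A, which encodes p21, was at 33.1 and 36.8 CPM in the vehicle libraries, 50.3 and 50.8 CPM with dexamethasone, 36.7 and 36.8 CPM with estradiol and 64.8 and 61.9 CPM with both (0.66 ± 0.075, adjusted p = 0.000639). CDKN1C, which encodes p57, was at 14.4 and 21.7 CPM in the vehicle libraries, 52.8 and 63.4 CPM with dexamethasone, 10.5 and 11.5 CPM with estradiol and 22.3 and 19.0 CPM with both (1.32 ± 0.17, adjusted p = 0.00144). For CDKN1A the groups did not overlap, while for CDKN1C the combination was above estradiol alone and overlapped with vehicle. These were the 2 called of 30 tested genes of G1 control. BTG2, an antiproliferative gene that p53 induces, was at 42.9 and 39.7 CPM in the vehicle libraries, 70.3 and 74.2 CPM with dexamethasone, 29.9 and 28.6 CPM with estradiol and 52.3 and 50.2 CPM with both (0.81 ± 0.065, adjusted p = 3.86e-05), and its log2 fold change was nearly the same in both backgrounds, 0.81 without and 0.81 with estradiol. GADD45G, a stress and growth arrest gene, was at 3.94 and 3.70 CPM in the vehicle libraries, 7.70 and 6.96 CPM with dexamethasone, 4.79 and 5.56 CPM with estradiol and 8.03 and 7.99 CPM with both (0.78 ± 0.12, adjusted p = 0.00791). With CDKN1A these were the 3 risen of 28 p53 and stress genes, and each held without any of the 8 libraries. Of 38 DNA replication genes edgeR and limma-voom called 0 and DESeq2 1, with 3 at an unadjusted p under 0.05. Of 37 mitotic genes the 3 tools called 0 and 0 had an unadjusted p under 0.05, and their log2 fold changes lay between -0.20 and 0.13. Of 34 apoptosis genes the 3 tools called 0, with 2 at an unadjusted p under 0.05. Against 0.88% called among all genes, counts of 0 in lists of this size are near the background.

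Genes of lipid handling rose in 4 of 32 cases, MFSD2A, AGPAT2, G0S2 and MGLL, and 0 fell. Over all genes tested 0.88% were called. MFSD2A, a transporter of lysophospholipids, was at 67.2 and 71.4 CPM in the vehicle libraries, 209 and 245 CPM with dexamethasone, 65.4 and 74.1 CPM with estradiol and 192 and 187 CPM with both, a log2 fold change of 1.58 ± 0.082 (adjusted p = 9.42e-07). The groups stood far apart, and vehicle and estradiol alone were level. AGPAT2, an acyltransferase of triglyceride synthesis, was at 114 and 139 CPM in the vehicle libraries, 213 and 217 CPM with dexamethasone, 199 and 217 CPM with estradiol and 314 and 283 CPM with both (0.64 ± 0.082, adjusted p = 0.00149), higher with estradiol as well. G0S2, which inhibits triglyceride breakdown, was at 17.5 and 12.6 CPM in the vehicle libraries, 62.6 and 25.2 CPM with dexamethasone, 104 and 117 CPM with estradiol and 215 and 183 CPM with both (1.17 ± 0.23, adjusted p = 0.0372). Its 2 dexamethasone libraries differed by over 2-fold, and its call was lost without any of the vehicle or estradiol libraries or without combination replicate 1 (adjusted p up to 0.114). MGLL, a monoglyceride lipase, rose by 0.78 ± 0.16 (adjusted p = 0.0498) and lost its call without each library in turn (adjusted p up to 0.16). Of 30 genes of cholesterol and fatty acid synthesis edgeR and limma-voom called 0 and DESeq2 1, and a count of 0 is near the background. An unadjusted p under 0.05 was seen for 7 of them, compared with 1452 of all 14201 genes.

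In nucleotide and energy metabolism, GMPR, which converts GMP back to IMP, was at 1.26 and 1.51 CPM in the vehicle libraries, 7.99 and 9.93 CPM with dexamethasone, 1.75 and 1.46 CPM with estradiol and 5.95 and 5.66 CPM with both (2.28 ± 0.19, adjusted p = 4.55e-05), with no overlap. DDIT4, an inhibitor of mTORC1, was at 443 and 462 CPM in the vehicle libraries, 529.7 and 538 CPM with dexamethasone, 189.7 and 200.03 CPM with estradiol and 275 and 255 CPM with both (0.34 ± 0.066, adjusted p = 0.0352). The 4 libraries with estradiol were lower than the 4 without, so the groups overlapped across backgrounds, and the call held only without vehicle replicate 2 or dexamethasone replicate 1 (adjusted p up to 0.142 in the other 6 fits). ARRDC2, an arrestin-domain gene, was at 5.93 and 5.79 CPM in the vehicle libraries, 15.5 and 15.2 CPM with dexamethasone, 5.63 and 7.55 CPM with estradiol and 10.2 and 9.29 CPM with both (0.97 ± 0.16, adjusted p = 0.0136). It stood higher in all 4 dexamethasone libraries, and the call was lost without vehicle replicate 2, dexamethasone replicate 2 or estradiol replicate 1 (adjusted p up to 0.0632). DDIT4 and ARRDC2 were the 2 risen of 37 genes of mTORC1, autophagy and insulin signalling. Among 34 glycolysis and hypoxia genes DDIT4, which is in both lists, and BNIP3, a mitophagy receptor gene, rose. With 0.88% of all genes called, lists of this size hold fewer than 1 call on average. Counts of 2 are no result about a pathway. BNIP3 changed by 0.45 ± 0.089 (adjusted p = 0.0372), held only without estradiol replicate 1 or the unnumbered combination library (adjusted p up to 0.107 in the other 6 fits), and shares 657 bases at 97.4% identity with the pseudogene BNIP3P1.

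Of 12 tested metallothionein and zinc genes MT2A, MT1X and SLC30A2 rose and 0 fell. MT2A, a metal-binding protein gene long known to respond to glucocorticoids, was at 17.9 and 23.0 CPM in the vehicle libraries, 28.4 and 35.4 CPM with dexamethasone, 15.9 and 17.4 CPM with estradiol and 24.8 and 23.8 CPM with both (0.59 ± 0.10, adjusted p = 0.0147). The groups did not overlap by a small margin, and the call was lost without dexamethasone replicate 2 or estradiol replicate 1 (adjusted p up to 0.0669). MT1X changed by 0.78 ± 0.14 (adjusted p = 0.0198), and the same libraries or combination replicate 1 decided its call (adjusted p up to 0.0753). SLC30A2, a zinc exporter, changed by 1.04 ± 0.18 (adjusted p = 0.0187) and lost its call without vehicle replicate 2, dexamethasone replicate 2, estradiol replicate 1 or combination replicate 1 (adjusted p up to 0.0894). Of 20 steroid metabolism enzymes 1 was called, which is near the background of 0.88% called among all genes. This was AKR1C2, which reduces steroids (0.52 ± 0.11, adjusted p = 0.039). It was lost without each library in turn (adjusted p up to 0.133), and it shares 3770 bases at 97.1% identity with AKR1C1.

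Several of the largest rises were of genes outside these pathways. STAC2, an adaptor of calcium channels, was at 1.94 and 1.41 CPM in the vehicle libraries, 18.5 and 20.4 CPM with dexamethasone, 1.18 and 1.41 CPM with estradiol and 5.15 and 5.21 CPM with both, a log2 fold change of 2.88 ± 0.26 (adjusted p = 7.87e-05). Its groups did not overlap, and dexamethasone alone was over 3 times the combination. PPP1R1B, an inhibitor of protein phosphatase 1 also known as DARPP-32, was at 8.13 and 6.81 CPM in the vehicle libraries, 68.1 and 63.5 CPM with dexamethasone, 9.01 and 10.3 CPM with estradiol and 29.4 and 25.3 CPM with both (2.32 ± 0.26, adjusted p = 0.000634). Its groups did not overlap either, and the combination lay between dexamethasone alone and the libraries without it. NXPH3, a neurexin ligand, was at 1.36 and 1.41 CPM in the vehicle libraries, 5.78 and 5.39 CPM with dexamethasone, 0.845 and 0.883 CPM with estradiol and 4.88 and 4.80 CPM with both (2.22 ± 0.16, adjusted p = 1.68e-05). Its levels with both hormones were close to those with dexamethasone alone. PRR15L was at 5.30 and 4.76 CPM in the vehicle libraries, 21.2 and 22.7 CPM with dexamethasone, 2.93 and 3.36 CPM with estradiol and 11.1 and 10.1 CPM with both (1.95 ± 0.12, adjusted p = 2.35e-06). RASSF4, of the Ras-association domain family, was at 0.997 and 0.827 CPM in the vehicle libraries, 5.15 and 5.72 CPM with dexamethasone, 1.35 and 1.59 CPM with estradiol and 4.61 and 3.59 CPM with both (1.98 ± 0.23, adjusted p = 0.000661). Neither overlapped between groups, but RASSF4 shares 698 identical bases with DEPP1, listed as C10orf10 in the count table, so its counts are uncertain.

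The 8 lowered genes included a clock repressor, a cytokine inhibitor and an immediate early factor. NR1D2, the nuclear receptor REV-ERB beta that represses clock genes, was at 52.9 and 46.3 CPM in the vehicle libraries, 27.1 and 25.4 CPM with dexamethasone, 52.2 and 44.3 CPM with estradiol and 31.4 and 38.5 CPM with both. It fell, with a log2 fold change of -0.69 ± 0.11 (adjusted p = 0.00871), and the 4 dexamethasone values were all below the other 4. With PER1 it was called of 23 clock genes, against 0.88% called among all genes. An unadjusted p under 0.05 was seen for 10 of the 23 (6 higher, 4 lower), compared with 1452 of all 14201 genes. SOCS2, an inhibitor of growth hormone and cytokine receptors, was at 9.66 and 9.19 CPM in the vehicle libraries, 4.82 and 4.71 CPM with dexamethasone, 10.5 and 9.54 CPM with estradiol and 5.95 and 6.78 CPM with both (-0.81 ± 0.11, adjusted p = 0.00346). Its exons overlap those of the antisense gene SOCS2-AS1. Exons of TSC22D3, SCNN1A, BCL6, CDKN1A, DDIT4, HIF3A, NGFR, ARRDC2, VDR, PCDH17, TPRG1-AS1, PGR, PDE4DIP, KRT8 and KRT18 also overlap a gene on the other strand. As no source used here states the strand setting of the counting, such pairs may share reads. DMBX1, a homeobox factor, was at 43.7 and 51.3 CPM in the vehicle libraries, 25.9 and 24.9 CPM with dexamethasone, 33.0 and 42.2 CPM with estradiol and 20.1 and 23.6 CPM with both (-0.84 ± 0.096, adjusted p = 0.000639). For SOCS2 and DMBX1 the groups did not overlap, and both calls, like that of NR1D2, held without any of the 8 libraries.

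EGR1, a zinc finger factor induced by growth factors within minutes, was at 70.4 and 69.7 CPM in the vehicle libraries, 56.8 and 54.2 CPM with dexamethasone, 82.6 and 94.3 CPM with estradiol and 58.1 and 65.2 CPM with both (-0.43 ± 0.074, adjusted p = 0.0149). All 4 dexamethasone values lay below the others, and the call was lost without dexamethasone replicate 2 or combination replicate 1 (adjusted p up to 0.0729). MEOX1, a homeobox factor, was at 134 and 138 CPM in the vehicle libraries, 94.1 and 108 CPM with dexamethasone, 98.0 and 106 CPM with estradiol and 76.7 and 75.6 CPM with both (-0.42 ± 0.065, adjusted p = 0.00607). It fell within each background, while dexamethasone alone overlapped estradiol alone. MOB3B, a kinase activator family gene, was at 25.2 and 24.7 CPM in the vehicle libraries, 18.0 and 21.4 CPM with dexamethasone, 29.4 and 27.4 CPM with estradiol and 20.7 and 19.4 CPM with both (-0.42 ± 0.084, adjusted p = 0.0372) and kept its call only without dexamethasone replicate 2 (adjusted p up to 0.151 in the other 7 fits). The other lowered genes, YJEFN3 and GOLGA8B, were near or below 4 CPM in all libraries and are named after their values were seen. YJEFN3 lost its call without any of the 4 libraries given estradiol (adjusted p up to 0.0747). GOLGA8B kept its call only without vehicle replicate 2 or dexamethasone replicate 1 (adjusted p up to 0.16 in the other 6 fits), and it shares 5479 bases at 98.7% identity with GOLGA8A.

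**Figure D4:**
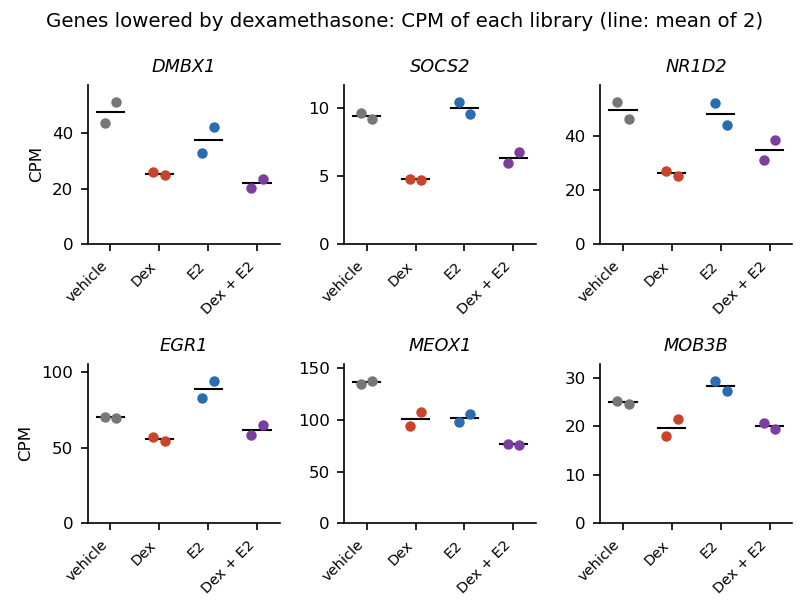
Expression in CPM (vertical axes, starting at 0) of 6 lowered genes in the 4 groups. Each point is a library and each line the mean of the 2 libraries of a group. The dexamethasone points lie below vehicle and the combination points below estradiol in each panel, for example SOCS2 at 4.71 to 6.78 CPM with and 9.19 to 10.5 CPM without dexamethasone.

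Some other gene groups had 0 called members. With 0.88% of all genes called, lists of this size hold fewer than 1 call on average, so these counts of 0 are near the background and are no result about the groups. Over all 14201 genes tested, 7085 had a log2 fold change above 0 and 1452 an unadjusted p under 0.05. Of 32 tested estrogen targets the 3 tools called 0, and 9 had an unadjusted p under 0.05, 6 of them higher. PGR and GREB1 had log2 fold changes of 0.29 ± 0.27 (adjusted p = 0.719) and 0.41 ± 0.22 (adjusted p = 0.553) and did not pass. Without dexamethasone replicate 1 these were -0.066 and 0.073, and in both genes the 2 dexamethasone libraries differed by over 2-fold. Keratins, the intermediate filament genes of epithelia, had a median log2 fold change of 0.37. All 12 tested were above 0 and 7 had an unadjusted p under 0.05, yet edgeR and limma-voom called 0 and DESeq2 4. KRT8, for example, was at 1237 and 1595 CPM in the vehicle libraries, 1839 and 1967 CPM with dexamethasone, 1229 and 1385 CPM with estradiol and 1671 and 1555 CPM with both (0.36 ± 0.087, adjusted p = 0.0923). KRT8 shares 869 bases at 96.9% identity with KRT8P3. Ribosome biogenesis genes had a median of -0.12. Of 33 tested, 4 were above 0 and 9 had an unadjusted p under 0.05, all with lower values, and the 3 tools called 0. Receptivity and secretory genes of the endometrium had 0 of 28 called by edgeR and limma-voom and 2 by DESeq2, with 5 at an unadjusted p under 0.05. Of 37 epithelial junction genes the 3 tools called 0, with 4 at an unadjusted p under 0.05.

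The dexamethasone term assumes that the effect is the same with and without estradiol, and the fit with 4 groups gives each background its own value. All 125 called genes had the same sign in both backgrounds, compared with 59.7% of all genes tested, and the call itself favours such genes. Among the 117 raised genes the median log2 fold change was 0.93 without and 0.70 with estradiol. The rise was smaller with estradiol in 99 of them, while over all genes tested the absolute change was smaller with estradiol in 56.7%. The test of the difference itself passed for 1 of the 117, PPP1R1B. A further 30 had an unadjusted p under 0.05 for the difference, and of these 31 genes 30 had the smaller rise with estradiol. Over all genes 733 had such a p and 3 passed (0.0211%), 1 with a higher value with estradiol (0.00704%) and 2 with a lower value (0.0141%). The fit with 4 groups called 137 genes without estradiol (0.965%; 129 higher, 0.908%) and 39 with it (0.275%; 34 higher, 0.239%).

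PPP1R1B rose by 3.14 without and 1.5 with estradiol on the log2 scale, a difference of -1.64 ± 0.19. SCNN1A showed 2.02 without and 1.23 with estradiol, a difference of -0.79 ± 0.13 that did not pass (adjusted p = 0.229). STAC2 showed 3.54 without and 1.98 with estradiol (difference -1.56 ± 0.30, adjusted p = 0.238). NGFR went the other way, with 0.76 without and 2.02 with estradiol (difference 1.26 ± 0.33, adjusted p = 0.635). For CCDC146, CTNND2, FSTL3, ARRDC2 and VDR the differences lay between -0.99 and -0.52 and did not pass. The dexamethasone term of CTNND2 itself lost its call without any of the vehicle or estradiol libraries or without dexamethasone replicate 2 (adjusted p up to 0.111). Beside PPP1R1B, the difference passed for EHF and POTEF, which the dexamethasone term did not call. EHF, an epithelial ETS factor, was at 9.5 and 7.20 CPM in the vehicle libraries, 33.0 and 31.7 CPM with dexamethasone, 13.9 and 13.6 CPM with estradiol and 16.7 and 19.1 CPM with both. Its dexamethasone term was 1.15 ± 0.25 (adjusted p = 0.0609), and the fit with 4 groups gave 1.96 without and 0.39 with estradiol. Without combination replicate 1 the term passed (1.37, adjusted p = 0.0237).

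**Figure D5:**
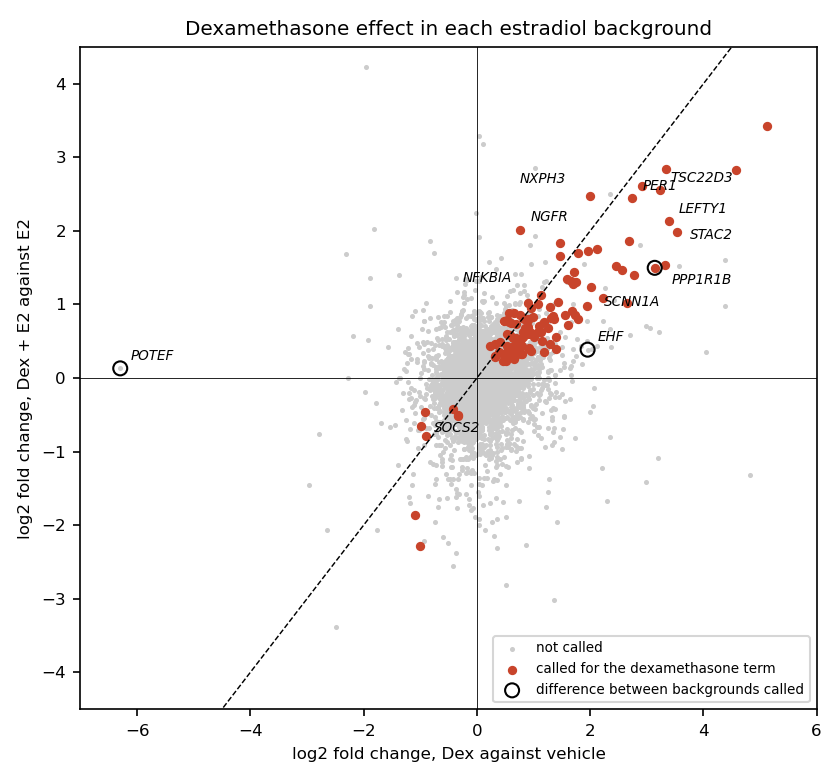
Log2 fold change of dexamethasone against vehicle (horizontal axis) and of the combination against estradiol (vertical axis) for each gene tested, from the fit with 4 groups. Red points are the 125 called genes, open circles the 3 genes whose difference between backgrounds was called, and the dashed line marks equal changes, with 2 genes outside the axes. Most raised genes lie below the dashed line, as 99 of 117 do, and the circled point at the far left is POTEF.

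Both backgrounds were also fitted alone, on 4 libraries each with no library in common. The fit without estradiol called 65 genes (0.458%; 62 higher, 0.437%, and 3 lower) and the fit with estradiol 151 (1.06%; 72 higher, 0.507%, and 79 lower, 0.556%). Shared between them were 38 genes, 58.5% of the first set and 25.2% of the second. Of the 62 genes raised without estradiol, 61 were above 0 in the other fit and 37 were called there, with medians of 1.63 and 0.84. Of the 72 raised with estradiol, 68 were above 0 and 37 called in the fit without it, with medians of 0.89 and 1.05. Of the 79 lowered with estradiol, 54 were below 0 in the fit without estradiol and 1 was called, with medians of -0.92 and -0.11. The gene called lower in both was DMBX1. Over all 14201 genes, which are not independent of each other, Pearson's r of both sets of log2 fold changes was 0.22 and Spearman's rho 0.23.

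The promoters of the raised genes were searched for the glucocorticoid response element, because these genes moved together and the receptor is known to bind it. The motif was AGAACA, then any 3 bases, then TGTTCT, on both strands with up to 2 mismatches in the 12 fixed letters, and its single arm TGTTCT on both strands. The windows ran from 250 bases before to 50 bases after the start of each gene in RefSeq's table of build GRCh38.p14. Of the 117 raised genes 83 had a promoter there, of the 8 lowered genes 6, and of all genes tested 11178. A full motif was found for 1 of the 83 (1.2%), METTL7A, listed by RefSeq as TMT1A, compared with 0.483% of all promoters. A single arm was found for 8 of the 83 (9.64%), compared with 8.69% of all promoters, and for 0 of the 6 lowered genes. A match describes the letters only, and its absence says nothing of binding outside these windows.

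The 250 bases before the start are shown for METTL7A with its motif match in capitals, and for PCDH17 and KDR, both raised, with their single arm in capitals, 5′ to 3′ on the gene's strand. These 3 genes were chosen after the values and matches were seen. METTL7A lies on the plus strand at chr12:50924765-50925014, PCDH17 on the plus strand at chr13:57631494-57631743 and KDR on the minus strand at chr4:55125596-55125845.
METTL7A: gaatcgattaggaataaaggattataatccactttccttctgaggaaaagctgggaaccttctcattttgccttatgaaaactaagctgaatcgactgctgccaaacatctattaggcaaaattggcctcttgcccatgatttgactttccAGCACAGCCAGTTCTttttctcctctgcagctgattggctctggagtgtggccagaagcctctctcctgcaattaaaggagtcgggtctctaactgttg
PCDH17: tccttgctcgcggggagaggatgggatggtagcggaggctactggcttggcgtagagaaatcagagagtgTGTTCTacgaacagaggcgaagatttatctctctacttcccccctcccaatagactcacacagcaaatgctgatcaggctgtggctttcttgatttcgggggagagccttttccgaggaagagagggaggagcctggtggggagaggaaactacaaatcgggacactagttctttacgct
KDR: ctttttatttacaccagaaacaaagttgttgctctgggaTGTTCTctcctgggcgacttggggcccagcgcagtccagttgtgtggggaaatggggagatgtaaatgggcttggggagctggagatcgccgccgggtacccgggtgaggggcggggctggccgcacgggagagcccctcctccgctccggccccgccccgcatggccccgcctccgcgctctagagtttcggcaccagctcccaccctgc
The METTL7A match begins 99 bases before the start, with 2 mismatches. METTL7A, a methyltransferase-like protein of lipid droplets, was at 68.5 and 66.4 CPM in the vehicle libraries, 124 and 126 CPM with dexamethasone, 39.0 and 46.5 CPM with estradiol and 68.6 and 70.1 CPM with both (0.80 ± 0.074, adjusted p = 0.00011). The rise was seen within each background, and the combination libraries were level with vehicle. PCDH17, a protocadherin, was at 4.93 and 6.08 CPM in the vehicle libraries, 19.2 and 16.6 CPM with dexamethasone, 9.57 and 6.62 CPM with estradiol and 18.1 and 20.9 CPM with both (1.48 ± 0.14, adjusted p = 0.00015). Its 4 dexamethasone libraries were all above the other 4.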

How the data were processed

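Poly(A) RNA libraries made with a stranded kit, per the labels' protocols, were sequenced from 8 samples of Ishikawa cells in 4 groups. Deposited were raw counts per gene as whole numbers and a table of normalized signal values, in which the counts of each library are divided by 1 factor (0.876 to 1.11). HISAT2 2.0.4, Subread, featureCounts 1.5.1, DESeq2 1.14.1 and build hg19 are named per the submitters' processing notes. Annotation and strand setting: not given in the sources used here. All tests used the counts, and the normalized table served only for that check. As 2 combination columns are numbered 1, the one that matches the sample label was taken as replicate 1 and the other as unnumbered.

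Genes were filtered with filterByExpr by group (minimum count 10), TMM-scaled, and modelled in edgeR 4.0.16 (limma 3.58.1, R 4.3.3), quasi-likelihood, with terms for dexamethasone and estradiol, which leaves 5 residual degrees of freedom. P-values were adjusted over the 14201 genes by the Benjamini-Hochberg method at 0.05, and a standard error is the fold change over the root of the F statistic. A fit with 4 groups (4 residual degrees of freedom) gave the effect in each background and the difference between them. CPM use the TMM-scaled library size. At 17846211 to 22487333 counts per library, genes with few counts are measured with little precision. Alternatives were DESeq2 1.42.0 and limma-voom, other scaling and filters, removal of RNA45S5, a minimum fold, and leaving out each library. The fit was tested on simulated counts without an estradiol effect, replicate pairing or differences between backgrounds. Changed genes were drawn only from those with a mean above 2 CPM without dexamethasone. The fit found 90% of the 1.5-fold and 98% of the 2-fold changes and made 210 calls, 16 of them false. These shares do not cover genes of lower level, and 10 raised and 2 lowered called genes had a mean CPM under 2.

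The genes and gene lists described were chosen with earlier results of these data known. Named genes are the 12 called genes at each end of the log2 fold changes (mean log2 CPM above 1, no overlap in either background). Fewer genes than 12 fell and met these terms. The called members of 44 gene lists are named too. For a list without a called member, no more than 3 of its genes were taken, by lowest p. From the genes called for the dexamethasone term or the difference between backgrounds, the 10 with the lowest p for that difference were added. NR3C1, ESR1, PGR, GREB1, TSC22D3, FKBP5 and PER1 were also included. Some genes that the rule takes are left out and not reported here. Other genes are said to be named after their values were seen. Shared sequence (at least 200 bases at 95% identity) was searched with blastn 2.17.0 in the GENCODE transcripts. Promoters came from RefSeq's table, which is of another build than the counts, so gene positions in hg19 are not given.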

Additional observations from a re-analysis of the deposited data

Results flagged for a closer look

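For 3 genes the effect of dexamethasone differed between cells with and without estradiol by the test of the difference in edgeR's fit with 4 groups. PPP1R1B rose in both backgrounds, by 3.14 without and 1.5 with estradiol, a difference of -1.64 ± 0.19 (adjusted p = 0.0231). That call was lost without dexamethasone replicate 1, without either library of the estradiol group or without the unnumbered combination library (adjusted p = 0.0789, 0.113, 0.293 and 0.0654). EHF changed by 1.96 without and 0.39 with estradiol, a difference of -1.57 ± 0.20 (adjusted p = 0.0462). It was lost without dexamethasone replicate 1, without either library of the estradiol group or without either combination library (adjusted p between 0.0654 and 0.372). For POTEF, one of the POTE genes, which hold an actin-like part, the difference was 6.43 ± 0.37 (adjusted p = 4.08e-05), and it passed without each of the 8 libraries in turn, with adjusted p up to 0.0026. POTEF was at 75.9 and 99.8 CPM in the vehicle libraries, 1.40 and 0.786 CPM with dexamethasone, 1.75 and 1.94 CPM with estradiol and 1.95 and 2.11 CPM with both, so that the vehicle libraries alone were high. Its dexamethasone term was -3.88 ± 0.91 (adjusted p = 0.0857), and the fit with 4 groups gave -6.30 without and 0.13 with estradiol. The term passed without either combination library (adjusted p = 0.0326 and 0.0195), and lay between -4.76 and -2.97 over the 8 fits that left out 1 library. It shares 3536 bases at 99.3% identity with POTEE, so its counts are uncertain.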

How the results depend on the processing

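The number of genes called for the dexamethasone term, 125, stayed within 1.5 times under DESeq2-type size factors (123), removal of RNA45S5 (125), a minimum mean CPM of 1 (117), limma-voom (129) and the mean of both backgrounds in the fit with 4 groups (152). It was 257 (207 higher, 50 lower) without the filter on low counts, 236 (194 higher, 42 lower) with DESeq2, with all 125 among them in both, and 64 (61 higher, 3 lower) when tested against a fold of 1.2. Leaving out 1 library gave 84 to 120. Without estradiol the fit with 4 groups called 137, against 253 (228 higher, 25 lower) with no filter, 65 with only these 4 libraries and 80 (without vehicle replicate 1) to 124 with 1 library left out. With estradiol it called 39, against 132 (71 higher, 61 lower) with no filter, 70 (45 higher, 25 lower) with DESeq2, 151 with only these 4 libraries and 10 (without estradiol replicate 1) to 67 (without vehicle replicate 1), with 64 without vehicle replicate 2 and 17 to 24 without estradiol replicate 2 or either combination library. The difference between backgrounds was called for 3 genes, against 32 with no filter, 14 with DESeq2 and 1 (without either estradiol library) to 10 (without dexamethasone replicate 2) with 1 library left out, and 5 without vehicle replicate 2. The causes were not tested.

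A replicate block on the 7 libraries with a number called 335 genes (238 higher, 97 lower), 118 of them among the 125, compared with 114 for these 7 libraries without the block. For dexamethasone against vehicle alone the block gave 630 (433 higher, 197 lower). The deviations of same-numbered libraries from their group means correlated at 0.49 between vehicle and dexamethasone, 0.42 between vehicle and estradiol and 0.091 between dexamethasone and estradiol, over 9937 genes. The labels do not say what a number stands for, and what libraries with the same number have in common was not tested.

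Of the 58 called genes that the naming rule takes, 0 reversed under any setting. All 58 kept their call with DESeq2, limma-voom, no filter and without RNA45S5, 56 with DESeq2-type size factors and 37 against a fold of 1.2. With 1 library left out 42 to 52 kept it. Genes at a few counts, such as KDR, are limited by depth.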

Other observations

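Some raised genes lie outside the lists described, and these are named after their values were seen. EMP1, an epithelial membrane protein gene, was at 103 and 129 CPM in the vehicle libraries, 189 and 244 CPM with dexamethasone, 61.4 and 71.8 CPM with estradiol and 113 and 117 CPM with both (0.85 ± 0.097, adjusted p = 0.000661). JADE2, a ubiquitin ligase gene with PHD fingers, was at 33.6 and 31.3 CPM in the vehicle libraries, 66.9 and 62.7 CPM with dexamethasone, 29.2 and 31.4 CPM with estradiol and 52.9 and 54.7 CPM with both (0.91 ± 0.071, adjusted p = 2.94e-05). TSKU, a secreted leucine-rich protein gene, was at 23.5 and 27.5 CPM in the vehicle libraries, 56.9 and 52.4 CPM with dexamethasone, 47.6 and 53.7 CPM with estradiol and 80.9 and 84.4 CPM with both (0.89 ± 0.094, adjusted p = 0.000365). In JADE2 the 4 libraries with dexamethasone lay above the other 4, whereas in EMP1 and TSKU the groups were apart only within each background.

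Receptor genes of low level rose as well. CXCR4, the receptor of the chemokine CXCL12, was at 2.47 and 2.09 CPM in the vehicle libraries, 5.49 and 6.12 CPM with dexamethasone, 2.48 and 2.61 CPM with estradiol and 4.97 and 4.17 CPM with both (1.09 ± 0.16, adjusted p = 0.00391). IL18R1, a subunit of the interleukin 18 receptor, was at 3.57 and 2.92 CPM in the vehicle libraries, 8.62 and 6.12 CPM with dexamethasone, 5.63 and 4.68 CPM with estradiol and 8.83 and 8.62 CPM with both (0.96 ± 0.15, adjusted p = 0.00866). In both, the dexamethasone libraries lay above all others. All 5 genes passed in edgeR's quasi-likelihood test without each of the 8 libraries in turn.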
